A study of Sus scrofa with 12 samples.

Results

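What the pig uterus transcribes was compared between birth and 50 h of age by pooling 2 groups of day 2 gilts, 8 libraries in all, and setting them against 4 libraries from newborns. The comparison takes in 16862 of the 20390 genes in the table, those with a deposited value above 1 in 4 or more of the 12 libraries, and leaves out the other 3528. Because 4 libraries suffice, a gene detected at 1 age alone also enters, through that age. The animals were female piglets of mixed Landrace, Yorkshire, Duroc and Hampshire descent, with 1 library of whole uterus, freed of connective tissue, from each. Newborns (PND0, 4 libraries) were sampled no later than 1 h after birth, before any nursing. The first day 2 group (PND2N, 4 libraries) had nursed at will for 48 h, and the second (PND2R, 4 libraries) had been given a commercial milk replacer for 48 h. No newborn had been fed and all day 2 gilts had, so age and a first feed of any kind cannot be told apart. The labels give neither litter nor processing batch, so the p-values measure the spread between animals of unstated kinship.

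The uterus of the pig is unfinished at birth. Its glands bud after birth from the epithelium that lines the lumen and grow into the stroma, and the oestrogen receptor ESR1 appears in the young gland cells at this stage. Birth itself ends the placental supply of glucose and oxygen and comes with a peak of cortisol, the main glucocorticoid of the pig.

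Each value is a normalized level on the authors' linear scale, on which 1 is the lowest entry. Column totals were 26534074 to 29544130, and the spacing of low values put the depth at roughly 22697181 to 45499458 reads. A change is given on the log2(value + 1) scale as day 2 minus birth, with both feeding groups weighted equally, ± its standard error. A gene is said to have risen or fallen where limma's test gave an adjusted p (Benjamini-Hochberg over 16862 genes) under 0.05. A gene that no longer reached this with a library left out is said to be lost without it. Names such as PND0 4 or PND2R 2 mark single libraries and carry no order or pairing.

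The libraries held the tissues of a uterus. Smooth muscle (DES, ACTA2), stroma (LUM, VIM), epithelium (KRT8, KRT18) and endothelium (PECAM1) markers were detected in all 12, with 0 of the 13, 13, 10 and 13 tested markers of epithelium, smooth muscle, stroma and endothelium at the value of 1 in any library. Separate sets of libraries stood apart within each age. PND2N 1, PND2R 2 and PND2R 3 had the highest levels of DES, the muscle intermediate filament desmin (40049, 33144 and 29022, against 7460.1 to 23439.7 in the other day 2 libraries and 7606 to 12625 at birth). They also lay at -124, -112 and -114 on the first principal component, which carried 58.5% of the variance, while the other 9 lay between -29.5 and 79.9. The summed level of 4 skeletal muscle markers was low throughout and highest in the same libraries, at 209, 228 and 220.4 against 41.8 to 136 in the other 9. Among newborns, PND0 3 and PND0 4 had less of the keratin KRT18 (1902 and 1753) than PND0 1 and PND0 2 (7511 and 7886). In whole tissue, fewer cells of a type and less RNA per cell cannot be told apart.

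Of the 16862 genes, 3046 (18.1%) changed between birth and day 2. Higher levels at day 2 were found for 1614 genes (9.57%) and lower levels for 1432 (8.49%). The typical rise was small and the typical fall larger, with medians of 0.83 and -1.40 on the log2 scale. Counting only genes that changed at least 2-fold, falls led, with 1001 (5.94%) against 533 rises (3.16%), an order that turned to 807 against 859 when the libraries were quantile-normalized. The genes that rose were also the more abundant ones, with a median birth level of 795, against 306 for those that fell and 495 for all genes. All 8 day 2 libraries lay above all 4 newborn libraries for 1124 genes (6.67%) and below them for 1117 (6.62%). Over all genes the median change was -0.05, and 47.2% were above 0, so the 2 ages were centred alike.

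The count depended on single libraries. Without PND0 4 the count was 1014, without PND0 3 it was 1553 and without PND0 1 it was 1980. It was 1652 without PND2N 4, 1757 without PND2R 2, 1808 without PND2R 3, and 1419 without the 3 libraries of highest DES, with 630 rises and 789 falls.

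**Figure D1:**
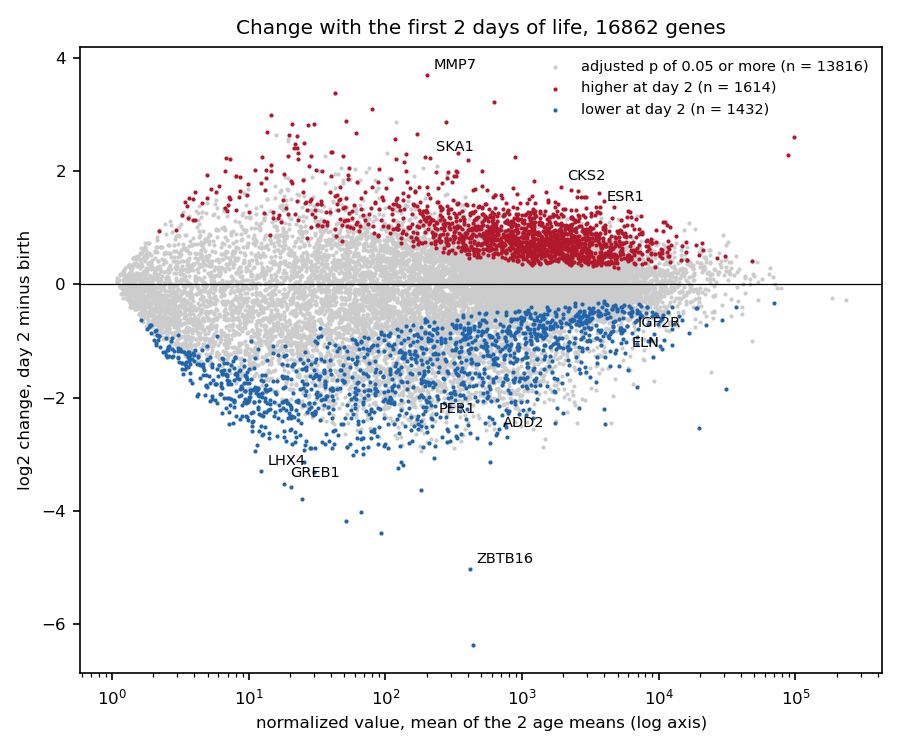
Log2 change from birth to day 2 (vertical axis) of 16862 genes against their level, the mean of both age means as a normalized value (horizontal log axis). Red points are the 1614 genes that rose, blue points the 1432 that fell and grey points the rest; rises gather at high levels and are mostly below 2, while falls reach -6.37 and spread over low and middle levels.

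The largest rise among named genes was that of MMP7, matrilysin, a protease made by glandular epithelia (chromosome 9, 38104906 to 38115301 on Sscrofa10.2). MMP7 stood at 11.2, 41.0, 51.4 and 11.8 in the 4 newborns and at 141 to 866, median 319.8, at day 2. Every day 2 library exceeded every newborn library, and the change was 3.69 ± 0.42 (adjusted p = 0.00179). Nursed gilts held the 4 highest values. SKA1, which holds chromosomes to the spindle, went from 46.0, 94.1, 91.2 and 64.5 at birth to between 211 and 519 with a median of 337 at day 2, a rise of 2.24 ± 0.26 (adjusted p = 0.00174). Genes with low birth levels also rose, with the lowest day 2 value of some lying just above the highest newborn value. SYCP3, a protein of paired meiotic chromosomes, read 2.21, 1.13, 1 and 3.73 at birth and 3.88 to 58.3, median 23.6, later (2.99 ± 0.53, adjusted p = 0.00645). BBOX1, the last enzyme of carnitine synthesis, read 4.60, 1, 1.52 and 1 at birth and 5.31 to 16.9, median 14.6, at day 2 (2.21 ± 0.39, adjusted p = 0.00643), with the lowest day 2 values in PND2R 2 and PND2N 2. RNASE10, of the ribonuclease A family, rose by 2.41 ± 0.41, PEBP4 of the phosphatidylethanolamine-binding family by 2.30 ± 0.44, and SIRT4, a mitochondrial sirtuin, by 1.98 ± 0.41. The melanosome protein PMEL rose by 1.88 ± 0.41 and PPY, pancreatic polypeptide, by 2.34 ± 0.59. Of these, PPY lost its call without PND0 3 or PND0 4 (adjusted p up to 0.0588). PPY and PMEL did so without the 3 libraries of highest DES (adjusted p = 0.0869 and 0.0541). SYCP3, BBOX1 and PMEL met the filter on low values only with the day 2 libraries. Their calls are therefore descriptions and not support.

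Some rises belong to intervals that need care. The entry IL17F rose by 2.25 ± 0.34, from 213, 349, 415 and 216 at birth to between 782 and 2552 with a median of 1319 at day 2, but its interval on chromosome 7 ends at 52045758, just before the replication gene MCM3, and which reads it counts was not tested. The entry named EED, a Polycomb subunit, spans only 984 bases and went from 216, 204, 142 and 200.1 at birth to between 332 and 1286 with a median of 785 at day 2 (2.00 ± 0.33, adjusted p = 0.00542). THEMIS2, a scaffold of immune cell signalling, overlaps EYA3 on the other strand, and whether the counting used strand is not given. It rose by 1.93 ± 0.35.

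The largest falls exceeded the largest rises. LHX4, a LIM homeobox transcription factor, went from 35.1, 12.9, 11.1 and 34.9 in newborns to the lowest entry of 1 in 5 of 8 day 2 libraries, with a highest value of 1.91. Its change was -3.30 ± 0.34 (adjusted p = 0.00155), a size that depends on the value added before logs were taken. PPP1R3G, which targets a phosphatase to glycogen, behaved likewise, from 42.2, 23.1, 34.8 and 48.5 to 1 in 5 of 8, 1.18 in PND2N 3, and 7.75 and 11.96 in 2 replacer-fed gilts (-3.59 ± 0.50, adjusted p = 0.00321). LHX4 and PPP1R3G met the filter on low values only with the newborn libraries, so their calls are given as descriptions and not as support. ZBTB21, a zinc finger repressor, changed by -3.14 ± 0.51, LASS2 (now CERS2, a ceramide synthase) by -2.90 ± 0.51, the neuronal phosphoprotein ARPP21 by -2.83 ± 0.50 and the semaphorin receptor PLXNA4 by -2.82 ± 0.56. None of these 4 lost its call when any 1 library was left out. The uncharacterised C14H10orf62 read 24.0, 29.4, 72.5 and 98.2 at birth and 2.20 to 9.87, median 3.54, at day 2 (-3.31 ± 0.45, adjusted p = 0.00306). GNG13, a G protein subunit that overlaps CHTF18 on the other strand, was high in only 2 newborns (39.3, 22.8, 427 and 531) and read 4.78 to 17.3, median 13.9, at day 2. Its change of -3.19 ± 0.77 did not pass without PND0 3 or PND0 4 (adjusted p up to 0.0674), the newborns with low KRT18, nor without the 3 libraries of highest DES (0.0559). DISP2, of the family that releases Hedgehog ligands, fell by 2.89 ± 0.63 and missed the threshold without PND0 4 (adjusted p = 0.0525). TUBAL3, an alpha tubulin overlapping NET1 on the other strand, fell by 2.82 ± 0.72, and missed it without PND0 1, 2 or 4 (adjusted p up to 0.0578). Without the 3 libraries of highest DES, TUBAL3 still passed, with a change of -1.75.

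Another 4 entries without a gene symbol were among the extremes and were picked out after their values were seen. LOC100153696, described as a histone H2A gene (chromosome 7, 21710625 to 21711156), had the lowest change of all genes tested, from 1209, 737, 892 and 604 at birth to between 1.40 and 53.1 with a median of 6.76 at day 2 (-6.37 ± 0.91, adjusted p = 0.00327). Most histone messages carry no poly(A) tail, and how the messenger RNA kit captured this one was not tested. LOC100525395, described as GREB1-like and lying next to GREB1 (chromosome 3, 132270292 to 132281329), went from 49.4, 76.7, 72.7 and 197 at birth to between 1.86 and 6.05 with a median of 4.11 at day 2 (-4.17 ± 0.40, adjusted p = 0.00104). At the other extreme were neighbouring hypothetical proteins near the start of chromosome 6. LOC100521496 (774328 to 775689) rose from 19181, 19858, 36717 and 24074 at birth to between 64492 and 386388 with a median of 124301 at day 2, a change of 2.61 ± 0.40 (adjusted p = 0.00424), and LOC100627748 (755413 to 771355) rose by 2.29 ± 0.44 (adjusted p = 0.00843). Both were highest in PND2R 3, with 386388 and 405665, and PND2N 1 and PND2R 2 held the next highest levels of each.

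Among genes with a mean of at least 1000, CKS2 had one of the smallest adjusted p-values. CKS2, a small subunit of the cyclin-dependent kinases, read 836, 1058, 912 and 732 at birth and 1898 to 4066, median 3119, at day 2 (1.73 ± 0.15, adjusted p = 0.000637). Its lowest day 2 library lay well above its highest newborn library. LRRC3B, a leucine-rich repeat membrane protein, rose by 1.83 ± 0.32, CAMK2N1, an inhibitor of calmodulin-dependent kinase II, by 1.64 ± 0.28, and the methyltransferase METTL23 by 1.56 ± 0.27. The deubiquitinase UCHL1 went from 1109, 1053, 2410.1 and 1509 at birth to between 3040.4 and 6213 with a median of 3749.6 at day 2 (1.54 ± 0.26, adjusted p = 0.00602), and ARPC3, of the complex that branches actin filaments, from 1685, 1805, 1243 and 892 at birth to between 2999.7 and 5385 with a median of 3847 at day 2 (1.54 ± 0.22, adjusted p = 0.00325). Each of these 6 rose with any 1 library left out. In the other direction ADD2, the beta adducin of the membrane skeleton, had the smallest adjusted p of all genes with a symbol. ADD2 fell from 864, 1308, 955 and 1315 at birth to between 110.1 and 331 with a median of 172 at day 2 (-2.62 ± 0.22, adjusted p = 0.000599), with no overlap between ages.

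Another set of genes, most of them abundant, was low at day 2 chiefly in 3 libraries. DDX17, an RNA helicase, stood at 19758, 16368, 43285 and 50166 in newborns, 1275, 10849, 13542 and 4473 in nursed gilts and 12579.7, 1735, 1992 and 10678 in replacer-fed gilts. The lowest values were in PND2N 1, PND2R 2 and PND2R 3, the libraries of highest DES, and all 8 lay below the newborns. Its change of -2.53 ± 0.71 (adjusted p = 0.0321) became -1.53 without these 3 (adjusted p = 0.0464). The same 3 libraries were lowest for ATXN7, a subunit of the SAGA transcription complex that overlaps the proteasome gene PSMD6 on its strand, for the chromatin regulator ANKRD11, for TGFBR3, the co-receptor betaglycan, for the zinc knuckle protein ZCCHC14, for ELMSAN1 of a histone deacetylase complex, for PITPNM3 of the phosphatidylinositol transfer family and for the axon guidance factor SEMA5A. Their changes were -2.65, -2.30, -2.46, -2.45, -2.70, -2.88 and -2.85 with all libraries, and -1.64, -1.54, -1.29, -1.50, -1.50, -1.65 and -1.66 without the 3. All 8 still passed then, with adjusted p between 0.012 and 0.0464, and all 8 missed the threshold without PND0 3 or PND0 4, the highest adjusted p of each being 0.0713 to 0.13. DDX17, TGFBR3, ELMSAN1, PITPNM3 and SEMA5A were also lost without PND0 1, PND2N 4 or PND2R 3, all of these but PITPNM3 without PND2R 2, and all but DDX17 without PND0 2. Of the 8, all but ANKRD11 also missed the threshold with no filter and with library quality weights.

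**Figure D2:**
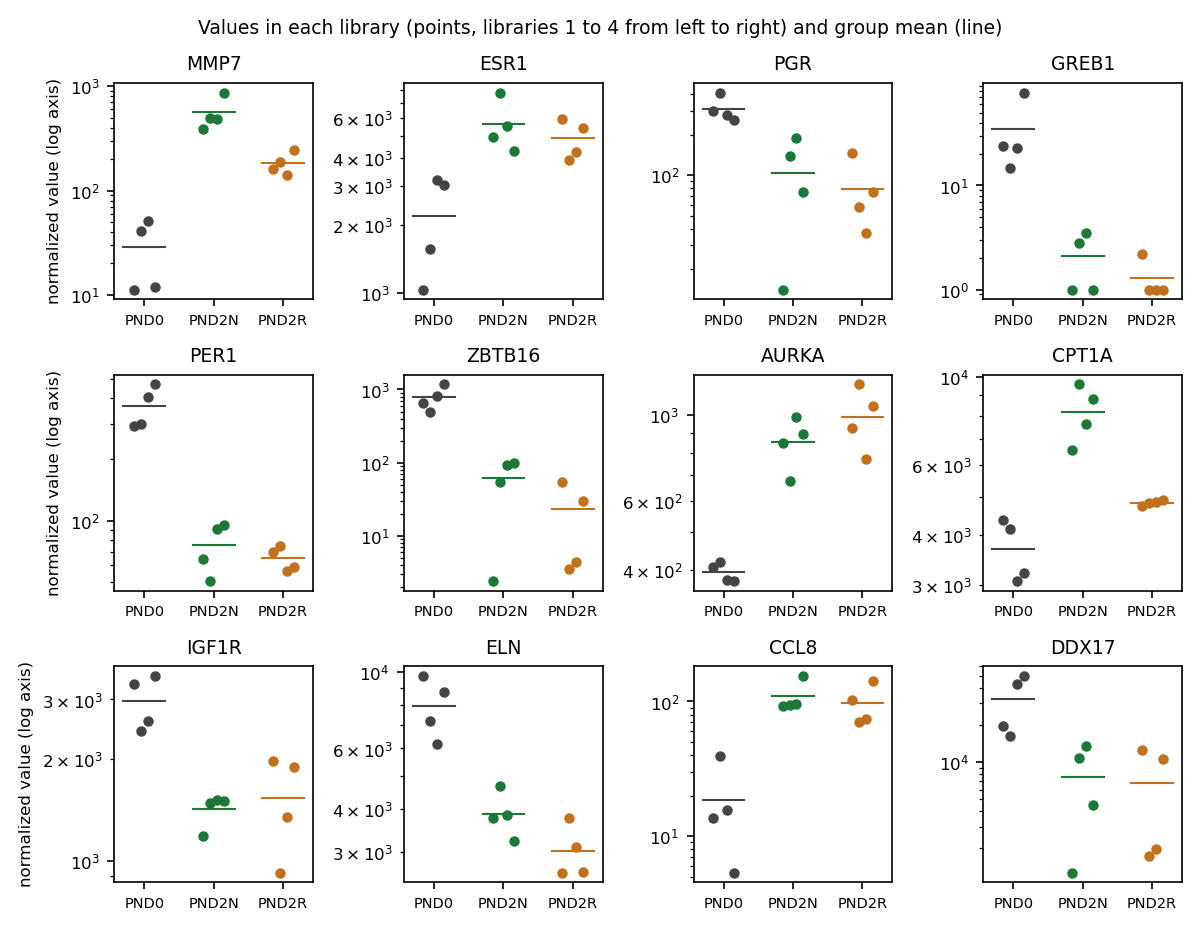
Normalized values (log axis) of 12 genes in each library, with 1 point for each of 4 libraries in PND0 (grey), PND2N (green) and PND2R (orange) and a line at the group mean. MMP7, AURKA, CPT1A, ESR1 and CCL8 are higher at day 2 and PER1, ZBTB16, GREB1, PGR, IGF1R, ELN and DDX17 lower, with no overlap between ages in any of the 12; PGR, ZBTB16 and DDX17 are lowest in PND2N 1, PND2R 2 or PND2R 3.

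ESR1, the oestrogen receptor alpha, read 1035, 1574, 3184 and 3033 at birth and 3910.0 to 7785, median 5194, at day 2, a rise of 1.37 ± 0.29 (adjusted p = 0.0125). Newborns themselves differed, PND0 3 and PND0 4 holding more ESR1 than PND0 1 and PND0 2, yet the lowest day 2 library was above them all. PGR, the progesterone receptor and a classical oestrogen target, read 299, 408, 278 and 256 at birth and 14.1 to 188, median 74.8, at day 2, a change of -2.08 ± 0.59 (adjusted p = 0.0331), again without overlap. The interval counted for PGR covers only 4056 bases, and its call was lost without PND0 1, 2, 3 or 4, PND2N 4, or PND2R 2 or 3 (adjusted p up to 0.0778). GREB1, also an oestrogen target, went from 23.7, 14.7, 22.9 and 77.5 to 1 in 5 of 8 day 2 libraries and at most 3.53 (-3.52 ± 0.42, adjusted p = 0.00222). It fell under all alternatives tried. GREB1 met the filter on low values only with the newborn libraries, so its call is given as a description and not as support.

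In the panel of genes for uterine development, 4 of 35 tested members rose and 4 fell, with a median change of 0.24 against -0.05 over all genes. The shares of all genes that rose and fell were 9.57% and 8.49%, so the count of risers and fallers is near that background. When PND0 4 was left out, 3 rose and 1 fell, and without PND2R 1 the risers numbered 8. The risers included MMP7, ESR1 and HOXA13. HOXA13, a homeobox gene of the posterior reproductive tract, read 1.15, 1.22, 15.6 and 2.85 and then 3.53 to 83.4, median 24.3, at day 2 (2.64 ± 0.77, adjusted p = 0.0367), with PND0 3 inside the day 2 range, and was lost without PND0 1, 2 or 4, PND2N 1 or 4, or PND2R 2 or 3 (adjusted p up to 0.096) and without the 3 libraries of highest DES (0.126). Among the fallers were PGR, GREB1 and the angiogenic factor VEGFA. PGR and HOXA13 were picked out after their values were seen.

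Cell division had the largest share of risers among the 38 lists. Of 21 tested, 12 rose and 0 fell, with a median of 0.86, against 9.57% risers and a median of -0.05 over all genes. Leaving out any 1 library left at least 11 risers, and 13 rose without the 3 libraries of highest DES. AURKA, a mitotic kinase of the spindle poles, read 407, 419.6, 377 and 375 in newborns and 677 to 1199, median 909.6, at day 2. Newborns differed little from one another, and the rise was 1.20 ± 0.16 (adjusted p = 0.00268). CCNB2, a mitotic cyclin, went from 714, 548, 811 and 619.9 at birth to between 1234 and 2349 with a median of 1638 at day 2 (1.33 ± 0.21, adjusted p = 0.00459). UBE2C, which marks mitotic cyclins for destruction, went from 1761, 1674, 1717 and 1564 at birth to between 2095 and 4046 with a median of 3078 at day 2 (0.86 ± 0.13, adjusted p = 0.0038). SKA1, given above, was the fourth. The other 8 risers were AURKB, SPC25, FOXM1, NUF2, TPX2, CENPA, BUB1 and CCNA2. CCNA2 was lost without PND0 1, 2 or 4, or PND2R 2 or 4 (adjusted p up to 0.094).

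DNA replication genes showed 7 risers and 0 fallers of 16 tested (median 0.44), against 9.57% and 8.49% of all genes. PRIM1, the primase subunit that starts new strands, went from 317, 435, 686 and 377 at birth to between 733 and 1125 with a median of 845 at day 2 (0.97 ± 0.20, adjusted p = 0.0117). ORC1, of the origin recognition complex, rose from 381, 519, 633 and 485 at birth to between 694 and 1366 with a median of 917 at day 2 (0.89 ± 0.20), and CHAF1A, which loads histones behind the fork, rose by 0.74 ± 0.15. CDT1, the licensing factor, rose by 1.17 ± 0.29 but missed the threshold without PND0 1 or PND0 4 (adjusted p up to 0.0649). The remaining risers were CDC45, PCNA and POLE2, and all 3 were lost without PND0 1, PND0 4 or PND2R 2 (up to 0.113) and without the 3 libraries of highest DES (0.0687 to 0.155). CDC45 was also lost without PND0 2 or PND2R 3, and POLE2 without any of 10 libraries, all but PND0 3 and PND2R 1. The count of risers fell to 3 without PND0 1 or PND0 4 and was 4 without the 3 libraries of highest DES.

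Nuclear genes for mitochondrial proteins included many risers. Of 22 tested subunits of oxidative phosphorylation, 10 rose and 0 fell (median 0.58), against 9.57% and 8.49% of all genes. NDUFS4, an accessory subunit of complex I, stood at 440.1, 418, 516 and 394 and then 736 to 1929, median 1431 (1.60 ± 0.24, adjusted p = 0.00409), although its interval overlaps LOC100518700, which fell by 4.02. Another complex I subunit, NUDFV2 (NDUFV2 in current use), rose by 0.90 ± 0.17. The ATP synthase genes ATP5O and ATP5J went from 5219.6, 6121, 4444 and 3542 at birth to between 7544 and 11257 with a median of 9275 at day 2 and from 3045, 3408, 2432 and 2111 at birth to between 4114 and 8594 with a median of 6208 at day 2. Those changes were 0.97 ± 0.17 and 1.17 ± 0.22, with adjusted p of 0.00602 and 0.00884 and no overlap of ages. In the mitochondrial ribosome 8 of 24 genes rose and 0 fell (median 0.49), among them MRPL42 (0.86 ± 0.15), MRPL47 (0.79 ± 0.16) and DAP3 (0.49 ± 0.11). MRPL13, of its large subunit, went from 1015, 1219, 972 and 724 at birth to between 1608 and 2422 with a median of 1877 at day 2 (1.01 ± 0.17, adjusted p = 0.00602). Without PND0 4 the risers numbered 5 for oxidative phosphorylation and 3 for the mitochondrial ribosome, DAP3 being lost (adjusted p = 0.0519). Without the 3 libraries of highest DES they numbered 5 and 3, DAP3 again being lost (0.062).

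Fatty acid oxidation had 12 risers and 0 fallers of 28 (median 0.47). CPT1A, the carnitine transferase at the gate of the pathway, read 4383, 4147, 3069 and 3221 at birth. It then read 6575, 9594, 7635 and 8825 in nursed and 4742, 4810.5, 4866 and 4911 in replacer-fed gilts, all above the newborns (0.77 ± 0.13, adjusted p = 0.0061). SLC25A20, which carries acylcarnitines across the inner membrane, rose from 1024, 1299, 935 and 951 at birth to between 1724 and 2508 with a median of 2194 at day 2 (1.00 ± 0.14, adjusted p = 0.00325). The thiolase ACAA2 rose by 0.55 ± 0.10, and BBOX1, above, makes the carnitine used by both. BBOX1 is counted among the 12 but met the filter on low values only with the day 2 libraries. Its call is therefore a description and not support. Another riser was UCP2, an uncoupling protein, lost without PND0 4 (adjusted p = 0.0634) and without the 3 libraries of highest DES (0.07). The citrate cycle had a median of 0.05, just below 0 when quantile-normalized. Its members gave 3 risers and 1 faller of 16, against 9.57% and 8.49% of all genes. SUCLG1, of succinate-CoA ligase, rose from 4605, 4978, 3794 and 3126 at birth to between 5367 and 9633 with a median of 7209.9 at day 2 (0.84 ± 0.17, adjusted p = 0.0117), and did so with any 1 library left out. SUCLA2 (0.56) was lost without PND0 1, 2 or 4, PND2N 1 or 4, or PND2R 2, 3 or 4 (adjusted p up to 0.103), IDH3B (0.49) without PND0 1, 3 or 4, PND2N 1 or 4, or PND2R 2 or 3 (up to 0.122), and the falling DLD (-1.06) without PND0 1 or 3 (up to 0.0545). All 3 were also lost without the 3 libraries of highest DES (adjusted p = 0.0522 to 0.158). Risers of fatty acid oxidation numbered 5 without PND0 4 and 7 without the 3 libraries of highest DES.

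Proteasome genes rose in 11 of 22 cases and fell in 0 (median 0.46). The ring subunits PSMA5 and PSMA2 went from 464, 551, 435 and 349 at birth to between 855 and 1479 with a median of 1084 at day 2 and from 1972, 2532, 2365 and 1898 at birth to between 3367 and 5640.3 with a median of 4206 at day 2. Their rises were 1.31 ± 0.19 and 0.99 ± 0.16 (adjusted p = 0.00346 and 0.00496), with PSMA6 (0.67 ± 0.14) and PSMA4 (0.64 ± 0.13) behind them. The count was 4 without PND0 4 and 4 without the 3 libraries of highest DES. Chaperones moved little, with 2 risers of 24, near the 9.57% of all genes, and a median of 0.03. CCT2, of the ring that folds actin and tubulin, went from 3327, 3255, 3350.5 and 2849 at birth to between 4477 and 5563 with a median of 5112 at day 2 (0.67 ± 0.10, adjusted p = 0.00396), and HSPE1, the mitochondrial chaperonin cap, rose by 0.89 ± 0.18.

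Glucocorticoid-responsive genes included more fallers than risers. Of 19 tested, 5 fell and 1 rose (median -0.54), against 8.49% and 9.57% of all genes. ZBTB16, a zinc finger factor strongly induced by glucocorticoids, stood at 646, 500.2, 824 and 1176 in newborns, 2.42, 54.0, 94.1 and 97.8 in nursed and 55.4, 3.54, 4.40 and 30.4 in replacer-fed gilts (-5.03 ± 0.93, adjusted p = 0.00765). The lowest values were those of PND2N 1, PND2R 2 and PND2R 3, and without them the change was -3.69 (adjusted p = 0.00401). The interval counted for ZBTB16 covers 4816 bases. PER1, a clock gene that glucocorticoids also induce, read 294, 301, 407 and 469.6 at birth and 50.3 to 95.3, median 67.2, at day 2 (-2.38 ± 0.25, adjusted p = 0.00155), and within each age the values differed by less than 2-fold. KLF9 was low throughout, from 8.15, 4.90, 12.9 and 6.87 to 1 in 6 of 8 and at most 3.53 (-1.95 ± 0.30, adjusted p = 0.00409). It is counted among the 5 but met the filter on low values only with the newborn libraries. The call of KLF9 is therefore a description and not support. HIF3A, a target of glucocorticoids and of hypoxia, read 42.7, 42.8, 34.9 and 78.1 and then 3.72 to 23.3, median 7.39 (-2.25 ± 0.48, adjusted p = 0.0133), and missed the threshold without PND0 4 (adjusted p = 0.0506). The fifth was CRISPLD2, lost without PND0 1, 2, 3 or 4, PND2N 1 or 4, or PND2R 2 (adjusted p up to 0.111). The single riser was ANGPTL4, which is also on the list of fatty acid oxidation and was lost without PND0 2, 3 or 4, PND2N 4, or PND2R 2 or 3 (up to 0.0855) and without the 3 libraries of highest DES (0.103). Without PND0 4 the fallers numbered 3, and without the 3 libraries of highest DES 6.

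The clock list had 3 fallers and 1 riser of 16 (median -0.17), against 8.49% and 9.57% of all genes. PER1 is shared with the list above. CRY2, a repressor of the clock, fell by 0.60 ± 0.14, with values of 1392, 1724, 1891 and 1916 at birth and 848 to 1529, median 1159, later, and CRY1 fell by 0.77 ± 0.24. DBP, a clock output factor, rose by 1.11 ± 0.30. All but PER1 depended on single libraries. CRY2 was lost without PND0 4 (adjusted p = 0.0554), DBP without PND0 1, 3 or 4, or PND2N 4 (up to 0.0757), and CRY1 without PND0 1, 3 or 4, PND2N 1, 2 or 4, or PND2R 2 or 3 (up to 0.119). Without the 3 libraries of highest DES, CRY1 was lost (0.144) and the rise of DBP was 0.69. The hour at which tissue was taken was not compared here.

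Immediate early genes, which cells switch on within minutes of a stimulus, showed 8 fallers and 0 risers of 20 (median -0.84). The shares of all genes that fell and rose were 8.49% and 9.57%. EGR1 read 75.9, 79.4, 52.3 and 44.2 at birth and 4.40 to 51.8, median 15.5, at day 2 (-1.98 ± 0.44, adjusted p = 0.0149), the value of PND2N 3 reaching into the newborn range. KLF6 read 4439.7, 5736, 9686 and 6902 and then 1811 to 4238, median 2937 (-1.16 ± 0.25, adjusted p = 0.0126), with no overlap. C-JUN, which encodes the AP-1 subunit JUN, read 9348, 20027, 15495 and 12899 at birth and 12967, 5760.5, 3845 and 5325 in nursed and 6029, 7225, 6138 and 6118 in replacer-fed gilts. Only PND2N 1 came within the newborn range, and the change was -1.14 ± 0.28 (adjusted p = 0.0209). C-JUN was lost without PND0 2, 3 or 4 (adjusted p up to 0.0586), and KLF10, a factor induced by TGF-beta (-0.81 ± 0.20), without PND0 3 (0.0599). FOS and EGR2 were among the other fallers, FOS lost without PND0 2 or 4, or PND2R 3 (up to 0.0846) and EGR2 without PND0 2, 3 or 4, or PND2R 2 or 3 (up to 0.0935) and without the 3 libraries of highest DES (0.0566). The count was 3 without PND0 2 or PND0 3 and 5 without the 3 libraries of highest DES.

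The insulin and IGF system had 6 fallers and 0 risers of 21 (median -0.26), against 8.49% and 9.57% of all genes. All 6 lay below the newborns in every day 2 library, as did 6.62% of all genes. IGF1R, the receptor for both IGF ligands, read 3327, 2419, 2597 and 3524 at birth and 922 to 1975, median 1492, at day 2 (-1.02 ± 0.20, adjusted p = 0.00962). IGF2R, which clears IGF2, read 8759, 8291, 6917 and 8696 and then 3411 to 5396, median 4588 (-0.86 ± 0.15, adjusted p = 0.00609). IRS1, the docking protein beneath IGF1R, went from 5117, 3658, 2975 and 3432 at birth to between 959.6 and 2421 with a median of 1709 at day 2 (-1.18 ± 0.24), and the binding protein IGFBP4 fell by 0.77 ± 0.16. The insulin receptor INSR and the kinase subunit PIK3R1 were the other fallers, PIK3R1 being lost without PND0 4 (adjusted p = 0.0594). At least 5 fell with any 1 library left out, and 6 fell without the 3 libraries of highest DES.

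Hypoxia-inducible genes had 8 fallers and 0 risers of 26 (median -0.45), against 8.49% and 9.57% of all genes. EGLN3, a prolyl hydroxylase that HIF induces and that acts on HIF, stood at 781, 822, 897 and 954 and then 354 to 602, median 449.8 (-0.93 ± 0.18, adjusted p = 0.00843). P4HA1, which hydroxylates collagen, stood at 4057, 4226, 5361 and 4745 and then 1928 to 3884, median 2170.3 (-0.95 ± 0.18, adjusted p = 0.00843). VEGFA stood at 4622, 4225, 4987 and 6399.5 and then 2534 to 3849, median 3305 (-0.60 ± 0.14, adjusted p = 0.0174). The ages did not overlap for any of these 3. NDRG1, PLOD2, EPAS1, KDM3A and HIF3A completed the fallers. The first 4 of these were each lost without PND0 1, 3 or 4, PND2N 4, or PND2R 2 or 3, among other libraries (adjusted p up to 0.134), and PLOD2 and KDM3A without the 3 libraries of highest DES (0.0939 to 0.13). Without PND0 4 the count was 2, and VEGFA missed the threshold (adjusted p = 0.0606).

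Glycolysis genes as a group moved little, with 2 risers and 2 fallers of 23 (median -0.17), near the 9.57% and 8.49% of all genes. LDHA, the muscle-type lactate dehydrogenase, read 10444, 14648, 9576 and 7037 at birth and 5274 to 8001, median 5866, at day 2, a change of -0.70 ± 0.19 (adjusted p = 0.0291) that was lost without PND0 1, 2 or 3, PND2N 4, or PND2R 2 or 3 (adjusted p up to 0.0708). The entry LDHB, which spans 1282 bases on chromosome 2, rose by 0.86 ± 0.15, and PYGM, the muscle glycogen phosphorylase, by 1.24 ± 0.37, the latter lost without PND0 1, 2 or 3, PND2N 2 or 4, or PND2R 2 or 3 (up to 0.101). Without the 3 libraries of highest DES, LDHA and PYGM were lost (0.0862 to 0.103) and the change of PYGM was 0.80. PPP1R3G is given above. In cholesterol and fatty acid synthesis 1 of 20 rose, the kinase PMVK (0.89 ± 0.28), and 1 fell, the sterol sensor partner INSIG1 (-0.72 ± 0.20). Both counts are below the shares of all genes, 9.57% and 8.49%. PMVK was lost without PND0 1, 3 or 4, PND2N 1 or 4, or PND2R 2, 3 or 4 (adjusted p up to 0.137) and INSIG1 without PND0 1, 2, 3 or 4, or PND2R 2 or 3 (up to 0.0949). Without the 3 libraries of highest DES both were lost (0.118 to 0.138), PMVK changing by 0.55.

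Chemokine and acute phase genes had 6 risers and 0 fallers of 29 (median 0.71), against 9.57% and 8.49% of all genes. CCL8, a chemokine for monocytes, read 13.6, 39.3, 15.8 and 5.38 at birth and 71.0 to 155, median 95.2, at day 2 (2.67 ± 0.43, adjusted p = 0.00483). Its relative CCL2 read 40.2, 41.6, 67.8 and 69.7 and then 126 to 387, median 199.9 (2.00 ± 0.33, adjusted p = 0.00496). Neither overlapped between ages. CXCL14, a chemokine made by epithelium and stroma, rose from 360.4, 297, 486 and 473 at birth to between 686 and 1838 with a median of 1007 at day 2 (1.32 ± 0.27, adjusted p = 0.0106). SAA3, an acute phase protein of epithelia, read 5.75, 2.45, 1.52 and 1.96 at birth, 2.30, 8.85, 11.8 and 10.002 in nursed and 57.6, 60.3, 22.5 and 166 in replacer-fed gilts (2.63 ± 0.53, adjusted p = 0.0101). The replacer-fed values were the higher ones, and PND2N 1 stayed within the newborn range. CXCL12 and CXCL13 were the other risers. CXCL13, at 1 in PND0 1, met the filter on low values only with the day 2 libraries. The call of CXCL13 is therefore a description and not support. CXCL12 was lost without the 3 libraries of highest DES (0.0583) and CXCL13 without PND0 1, 3 or 4 (up to 0.064).

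Interferon-stimulated genes had 6 risers and 0 fallers of 27 (median 0.49), against 9.57% and 8.49% of all genes. HERC5, which attaches ISG15 to proteins, read 209, 269.7, 137 and 72.1 and then 308 to 685, median 408 (1.49 ± 0.35, adjusted p = 0.0174). The entry BST2, tetherin, rose by 1.92 ± 0.41, the guanylate-binding protein GBP2 by 0.94 ± 0.22 and IFI44 by 0.93 ± 0.24. The table places BST2 on chromosome 13, whereas the NCBI gene table places it on chromosome 2. Without PND0 4, which had the lowest levels of HERC5, BST2 and IFI44, the risers numbered 2, and HERC5 and IFI44 were lost (adjusted p = 0.0542 and 0.0878). IFI44 was also lost without PND0 3, and GBP2 without the 3 libraries of highest DES (0.0562).

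Complement genes had 7 risers and 0 fallers of 20 (median 0.31), against 9.57% and 8.49% of all genes. SERPING1, the inhibitor of the first complement component, read 7207, 7908, 6999.7 and 6997 at birth and 10100.1 to 20011, median 15045, at day 2 (1.05 ± 0.20, adjusted p = 0.00836). The recognition chains C1QC and C1QB, made by macrophages, went from 1631, 2108, 1184 and 848 at birth to between 2415 and 4074 with a median of 3047 at day 2 and from 1639, 2404, 1416 and 1169.8 at birth to between 2492 and 3914 with a median of 3242 at day 2, rises of 1.17 ± 0.22 and 0.99 ± 0.19 (adjusted p = 0.00858 and 0.00884). CD59, which shields cells from lysis, rose by 0.46 ± 0.12, lost without PND0 2 or PND0 4 (up to 0.0792) and without the 3 libraries of highest DES (0.0631). The risers numbered 3 without PND0 4 and 3 without the 3 libraries of highest DES. Antigen presentation had 5 risers of 19 (median 0.73), among them the class I gene SLA-8 (0.89 ± 0.21), the protease CTSS (1.02 ± 0.26) and the proteasome activators PSME1 (0.73 ± 0.19) and PSME2 (0.98 ± 0.27). All 5 were lost without PND0 4, these 4 with adjusted p of 0.0587 to 0.0992, and without the 3 libraries of highest DES (0.0555 to 0.0998). CTSS, PSME1 and PSME2 were lost without PND0 3 too, PSME1 and PSME2 without PND2N 4 or PND2R 2, and PSME2 without PND2R 3. SLA-8 shares sequence with other class I genes, so its value is uncertain.

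C1QA, C1QB and C1QC are on the list of macrophage markers as well as the complement list, so agreement between these lists is in part built in. Against 9.57% of all genes, 5 of 12 macrophage markers rose (median 0.69). Beside C1QB, C1QC and C1QA, the last lost without PND0 3 or 4, PND2N 4, or PND2R 2 or 3 (adjusted p up to 0.0939) and without the 3 libraries of highest DES (0.0855), these were LAPTM5 and AIF1 (1.11 ± 0.29). LAPTM5, a lysosomal protein of leukocytes, went from 2162, 2448, 1812 and 1295 at birth to between 2651 and 3567 with a median of 3056 at day 2 (0.69 ± 0.16). The summed level of the markers was 5669 to 10858 at birth and 10658 to 14823 at day 2, with PND0 4 the lowest. LAPTM5 and AIF1 were lost without PND0 4 (adjusted p = 0.0506 and 0.072), and 2 markers rose then. AIF1 was lost without PND0 3 or PND2N 4 as well, and both were lost without the 3 libraries of highest DES (0.0643 to 0.0895). What share of the chemokine and complement changes moves with these markers was not tested.

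Some matrix genes fell. Of 25 tested genes of interstitial matrix, 5 fell and 0 rose (median -0.28), against 8.49% and 9.57% of all genes. ELN, elastin, read 9752, 7208, 6163 and 8754 at birth and 2616 to 4653, median 3502, at day 2 (-1.21 ± 0.16, adjusted p = 0.00245), and FBLN1, a fibulin bound to elastic fibres, 7569, 7945, 6112 and 6933 and then 2439.7 to 5613, median 3554 (-0.97 ± 0.21, adjusted p = 0.0125). Neither overlapped between ages. COL5A1, which sets the width of collagen fibrils, fell by 0.98 ± 0.24, and SPARC, an abundant collagen-binding protein, fell by 0.33 ± 0.10. COL5A1 was lost without PND0 3 or PND0 4 (up to 0.072) and SPARC without PND0 1, 2, 3 or 4, PND2N 1 or 4, or PND2R 3 or 4 (up to 0.0935), and both without the 3 libraries of highest DES (0.0604 to 0.0931). THBS1 was the fifth faller, lost without PND0 3 or 4, PND2N 1 or 4, or PND2R 2 or 3 (up to 0.137). The fallers numbered 2 without PND0 3 or PND0 4 and 2 without the 3 libraries of highest DES.

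Basement membrane genes had the lowest median of all 38 lists, -1.07. Of 15 tested, 4 fell and 1 rose, against 8.49% and 9.57% of all genes. Of the collagen IV chains, COL4A1 went from 14030.1, 20126, 13321 and 19107 at birth to between 3553 and 14984 with a median of 7621 at day 2 (-1.07 ± 0.28, adjusted p = 0.0245) and COL4A2 from 4112, 5560.3, 4095 and 5968 at birth to between 763 and 4216 with a median of 1943 at day 2 (-1.39 ± 0.36). COL4A3 read 601, 465, 2511 and 1589 at birth and 73.2 to 435, median 198, later (-2.53 ± 0.66), highest in PND0 3 and PND0 4 and lowest in PND2N 4 and the 3 libraries of highest DES. COL4A5 on the X chromosome rose by 0.54 ± 0.16. All 5 members were lost without PND0 4, with adjusted p of 0.0804 to 0.0836 for COL4A1, COL4A2 and COL4A3. The highest adjusted p of COL4A5, 0.0909, came without PND0 1. All 5 were lost without the 3 libraries of highest DES (these 4 chains at 0.0506 to 0.124), where the median was -0.58 and COL4A2 changed by -0.91. COL4A1 and COL4A2 were lost without PND0 2, COL4A2 and COL4A3 without PND0 3, COL4A2 without PND2N 4, and COL4A5 without PND0 1, 2, 3 or 4, PND2N 1 or 2, or PND2R 2 or 3.

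Vessel markers gave 2 fallers and 0 risers of 13 (median -0.35), against 8.49% and 9.57% of all genes, and 1 faller was left without PND0 3 or 4, PND2N 4, or PND2R 2 or 3. TIE-1, an endothelial receptor kinase, read 1847, 2035, 2729 and 3217 at birth and 514 to 1344, median 817, at day 2 (-1.55 ± 0.21, adjusted p = 0.00321), with no overlap, and held under all alternatives tried. FLT1, a VEGF receptor, fell by 1.34 ± 0.36 and was lost without PND0 3 or 4, PND2N 4, or PND2R 2 or 3 (up to 0.0998) and without the 3 libraries of highest DES (0.086). VWF, the clotting factor of endothelium, did not pass with all libraries (-2.88 ± 1.01, adjusted p = 0.0663). Its values were 2037, 1839.7, 1836 and 3194 at birth and 24.2, 55.8 and 90.2 in the 3 libraries of highest DES. Without them its change was -1.44 and passed (adjusted p = 0.0163).

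The list for Wnt, Hedgehog and Notch signalling gave 2 risers and 5 fallers of 33 (median -0.28), against 9.57% and 8.49% of all genes. Without PND0 4 these counts were 0 and 1, and without the 3 libraries of highest DES 0 and 3. GLI3, a transcription factor of the Hedgehog pathway, read 328, 314, 520.1 and 556 at birth and 162 to 215, median 186, at day 2 (-1.15 ± 0.21, adjusted p = 0.00733). Its day 2 values were nearly alike in all 8 libraries, and it fell under all alternatives tried. Its relative GLI1 fell with all libraries but was lost without PND0 3 or 4, PND2N 1 or 4, or PND2R 2, 3 or 4 (adjusted p up to 0.142) and without the 3 libraries of highest DES (0.139). LEF1, a nuclear partner of Wnt signals, rose by 0.69 ± 0.18, the Wnt antagonist DKK2 fell by 0.78 ± 0.19 and the Notch ligand JAG2 fell by 1.11 ± 0.28. LEF1 was lost without PND0 1, 2 or 4 (adjusted p up to 0.0658) and without the 3 libraries of highest DES (0.0936), DKK2 without PND0 3 or 4 (up to 0.0693) and JAG2 without PND0 2 or 4 (up to 0.061). The receptor FZD2, which rose, was lost without PND0 1, 2, 3 or 4, PND2N 4, or PND2R 2 or 3 (up to 0.0937) and the Wnt enhancer RSPO3, which fell, without PND0 1, 3 or 4, PND2N 4, or PND2R 2 or 3 (up to 0.0984), and both without the 3 libraries of highest DES (0.0609 to 0.0686).

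Chromatin modifiers had 7 fallers and 2 risers of 30 (median -0.49), against 8.49% and 9.57% of all genes. CHD3, a remodeller of the NuRD complex, read 39831, 32770.3, 32767 and 35570.1 at birth and 19509.8 to 27528, median 22493, at day 2 (-0.63 ± 0.12, adjusted p = 0.00705). ARID1B, of the BAF complex, read 2391, 2500.3, 2471 and 2564 and then 595 to 1646, median 1326 (-1.11 ± 0.26), lowest in the 3 libraries of highest DES. EZH2, the Polycomb methyltransferase, rose from 114, 203, 274 and 199 at birth to between 267 and 508 with a median of 408 at day 2 (1.01 ± 0.26). Without PND0 4 ARID1B and EZH2 were lost (adjusted p = 0.0553 and 0.0584) and the fallers numbered 1. EZH2 was also lost without PND0 1 and without the 3 libraries of highest DES (0.0779). Without those 3, 4 members of the list fell and 0 rose, with a median of -0.35. The list's median relative to its genes' means ran from 0.14 to 0.52 at birth and from -0.49 to 0.22 at day 2.

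Markers of further cell types were read to see what else moved with age. Among all genes 9.57% rose, so 1 riser in a list of 10 or 13 is near that background. Of 13 epithelial markers 1 rose, ST14, a membrane protease, with 11115, 11453, 5795 and 5011 at birth and 11328 to 19181, median 16432, at day 2 (1.01 ± 0.24). It was lost without the 3 libraries of highest DES (0.0728) and without PND0 3 or PND0 4 (up to 0.064), the newborns with a low summed level of epithelial markers (31923 to 136093 over all newborns, 70814 to 123345 at day 2). KRT18 did not pass (1.21 ± 0.43, adjusted p = 0.0684). Ciliated cell markers gave 3 risers of 10, against 9.57% of all genes, and 0 without PND0 4. Their summed level did not rise with age, at 3592 to 7014 in newborns, highest in PND0 4, and 3951 to 6689 at day 2. The 3 risers were the cilia switch FOXJ1 (1.36 ± 0.42), SPAG6 of the ciliary axoneme (2.02 ± 0.52) and DNAI1, a dynein chain listed at 1 in all 4 newborns and up to 6.66 at day 2. DNAI1 passed the filter on low values through day 2 libraries alone, so its call is given as a description and not as support. SPAG6 was lost without PND0 2 or 4 (adjusted p up to 0.0779), FOXJ1 without PND0 1, 3 or 4, PND2N 1 or 4, or PND2R 2, 3 or 4 (up to 0.125) and DNAI1 without any of 10 libraries, all but PND2N 2 and PND2R 3 (up to 0.105). FOXJ1 also missed the threshold without the 3 libraries of highest DES, with a change of 0.90 (0.13). Smooth muscle gave 1 riser of 13, the potassium channel subunit KCNMB1 (1.33 ± 0.37), and 5 without PND2N 3. KCNMB1 was lost without PND0 1 or 3, PND2N 4, or PND2R 2 or 3 (up to 0.0817). KCNMB1 and THY1, the single stroma riser of 10 (0.62 ± 0.16), were also lost without the 3 libraries of highest DES (0.0801 to 0.103), and THY1 without PND0 1, 2 or 4, or PND2R 3 (up to 0.0712). DES itself missed the threshold (1.09 ± 0.37, adjusted p = 0.0576).

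Fat cell markers did not move one way. Of 6 tested, 2 fell and 3 had a change above 0, and their summed level was 2107 to 3164 at birth and 1925 to 4966 at day 2. LPL, lipoprotein lipase, read 325, 380.3, 433 and 610.4 at birth and 15.5 to 191, median 74.6, at day 2 (-2.70 ± 0.49, adjusted p = 0.00698), with no overlap, and fell with any 1 library left out. CIDEC, of lipid droplets, fell by 1.19 ± 0.33 and was lost without PND0 1, 2, 3 or 4, PND2N 4, or PND2R 2 or 3 (up to 0.0959), without the 3 libraries of highest DES (0.0912), and when quantile-normalized, under which the median of the fat cell markers turned from -0.31 to 0.16. PLIN4, a lipid droplet protein, read 144, 385, 425 and 843 at birth and 445 to 1391, median 893, at day 2, a difference of 1.22 ± 0.39 that did not pass (adjusted p = 0.0504) but did without PND0 4, PND2N 3 or PND2R 1. The difference of GPD1, glycerol phosphate dehydrogenase, was 0.59 ± 0.28 (adjusted p = 0.143). Risers numbered 1 of 8 for neutrophils and mast cells (S100A12, 2.41 ± 0.67) and 1 of 11 for B and plasma cells (XBP1P1, XBP1 in current use, 0.53 ± 0.15). For nerve 1 of 8 rose (PRPH, 1.06 ± 0.32), although the median there was -0.31 and only 3 of 8 changes were above 0. For mesothelium 1 of 6 fell (LRRN4, -1.08 ± 0.33). Among all genes 9.57% rose and 8.49% fell, so 1 call in such short lists is near that background. S100A12 was lost without PND0 3 or 4, PND2N 4, or PND2R 3 (adjusted p up to 0.11), XBP1P1 without PND0 1, 3 or 4, PND2N 1 or 4, or PND2R 2 or 3 (up to 0.122), PRPH without PND0 1, 2, 3 or 4, PND2N 1, 2 or 4, or PND2R 2 or 3 (up to 0.0949) and LRRN4 without PND0 1, 2, 3 or 4, PND2N 1, 2 or 4, or PND2R 2 (up to 0.125). XBP1P1, PRPH and LRRN4 were also lost without the 3 libraries of highest DES (0.0712 to 0.119), where XBP1P1 changed by 0.35. By limma, 0 markers passed for T and NK cells, erythroid cells and skeletal muscle, with 0, 1 and 2 at an unadjusted p under 0.05. Over all 38 lists, those with 0 fallers held 0 to 2 members lower at an unadjusted p under 0.05, and those with 0 risers 0 to 2 members higher.

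**Figure D3:**
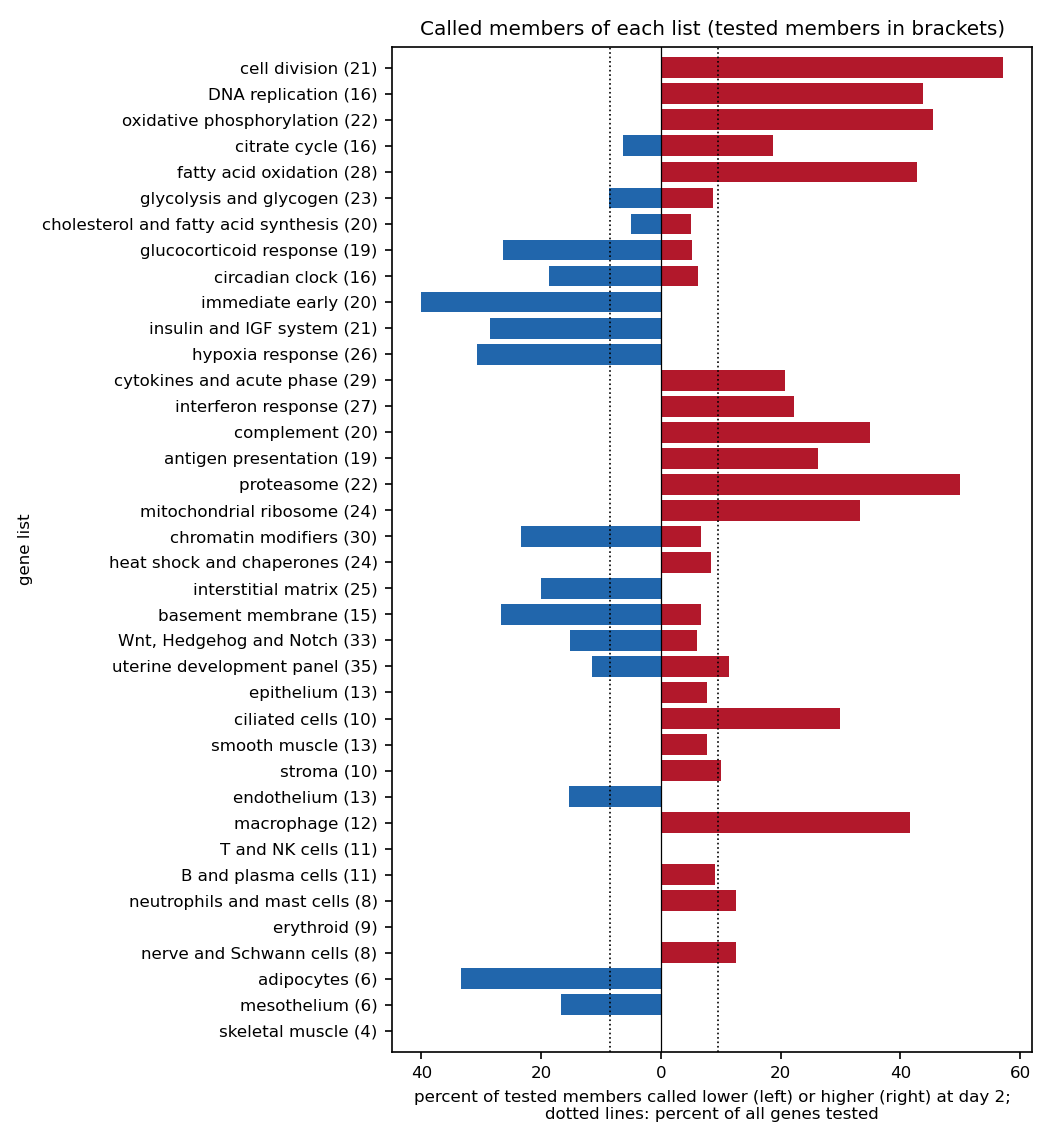
Percent of the tested members of each of 38 gene lists that rose (red, to the right) or fell (blue, to the left) at day 2, with the number tested in brackets and dotted lines at 9.57% and 8.49%, the shares of all 16862 genes. Cell division, proteasome, oxidative phosphorylation and DNA replication reach farthest right, and immediate early, adipocyte, hypoxia and IGF genes farthest left.

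**Figure D4:**
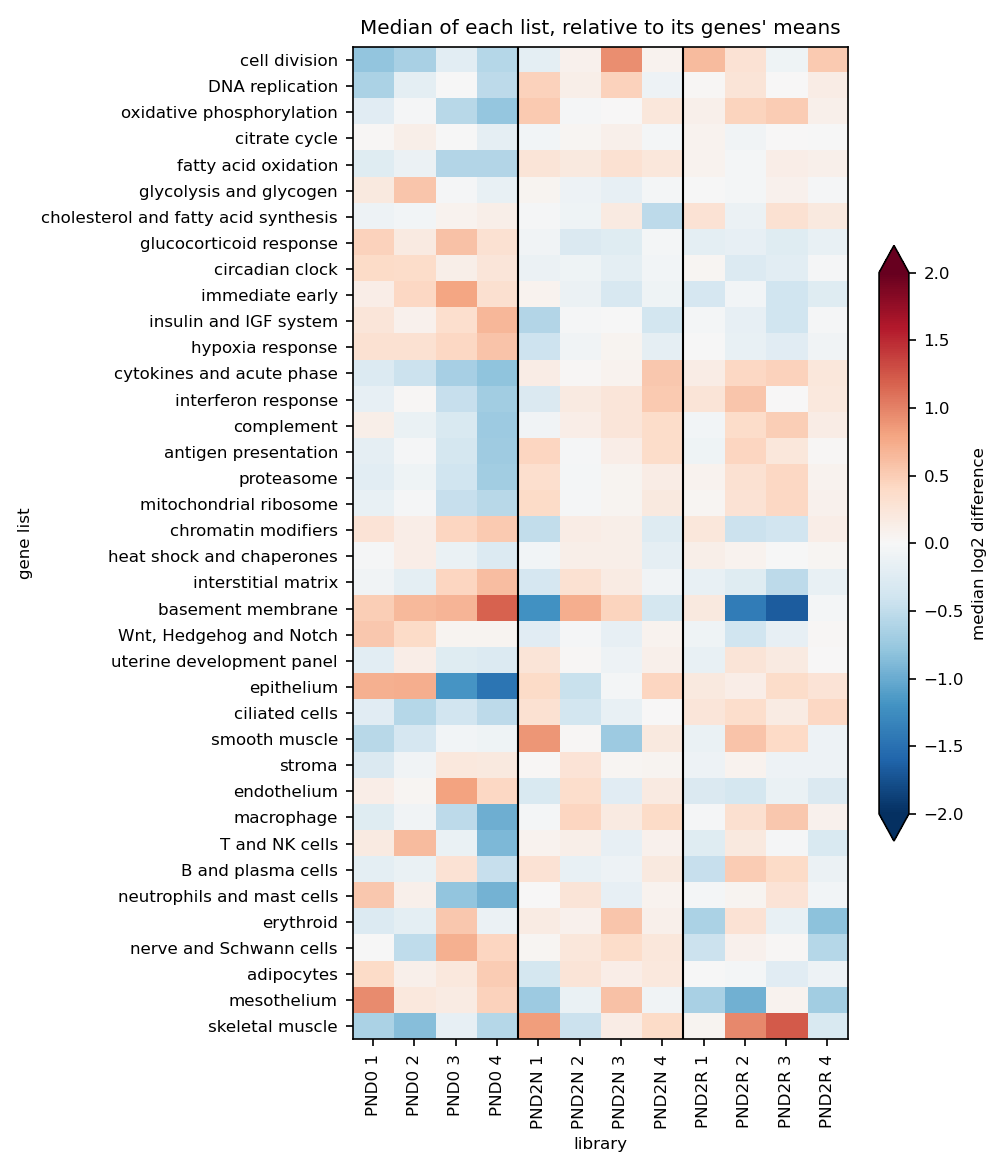
Median log2 level of each gene list (rows) in each of the 12 libraries (columns), relative to the mean of each gene over all libraries, on a colour scale from -2 (blue) to 2 (red), with lines between PND0, PND2N and PND2R. Cell division is below 0 in all 4 newborns; basement membrane is lowest in PND2N 1, PND2R 2 and PND2R 3, and epithelium in PND0 3 and PND0 4.

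Both feeding groups were set against the same 4 newborn libraries, so agreement between them is in part built in, and their values are given side by side only. Against PND0, 560 genes (3.32%) passed for PND2N, 322 up (1.91%) and 238 down (1.41%). For PND2R 2531 (15%) passed, 1299 up (7.7%) and 1232 down (7.31%), and the difference between these counts was not tested. Between the feeding groups, 2 genes (0.0119%) passed, and 452 had an unadjusted p under 0.05. ESR1 changed by 1.46 ± 0.33 in nursed and 1.27 ± 0.33 in replacer-fed gilts, PER1 by -2.29 ± 0.29 and -2.46 ± 0.29, and AURKA by 1.10 ± 0.18 and 1.30 ± 0.18. For other genes the values stood farther apart. CPT1A moved by 1.14 ± 0.15 in nursed and 0.40 ± 0.15 in replacer-fed gilts, and all nursed values exceeded all replacer-fed values. The difference of 0.74 ± 0.15 did not pass over all genes (adjusted p = 0.665). MMP7 moved by 4.48 ± 0.49 and 2.91 ± 0.49 (difference 1.57 ± 0.49), SAA3 by 1.18 ± 0.61 and 4.08 ± 0.61 (difference -2.90 ± 0.61), and ADD2 by -2.15 ± 0.25 and -3.09 ± 0.25 (difference 0.94 ± 0.25). None of these 3 differences passed, the smallest adjusted p being 0.665. Both genes that passed lack a symbol. LOC100514492, a hypothetical protein on chromosome 13 (65432520 to 65460967), read 24.9, 14.8, 29.3 and 30.5 in newborns, 1, 1.27, 1 and 1.67 in nursed and 76.0, 91.2, 73.5 and 67.1 in replacer-fed gilts. Its pooled change of -0.93 (adjusted p = 0.0378) joins a change of -3.49 in nursed gilts with one of 1.63 in replacer-fed gilts. LOC100518566, described as similar to TMEM126B (chromosome 9, 22290442 to 22297782), read 134, 59.2, 71.9 and 113 in newborns, 3.63, 5.59, 7.65 and 3.35 in nursed and 106, 44.6, 179 and 91.5 in replacer-fed gilts. Its pooled change of -1.95 (adjusted p = 0.0103) joins -3.96 in nursed gilts with 0.07 in replacer-fed gilts.

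**Figure D5:**
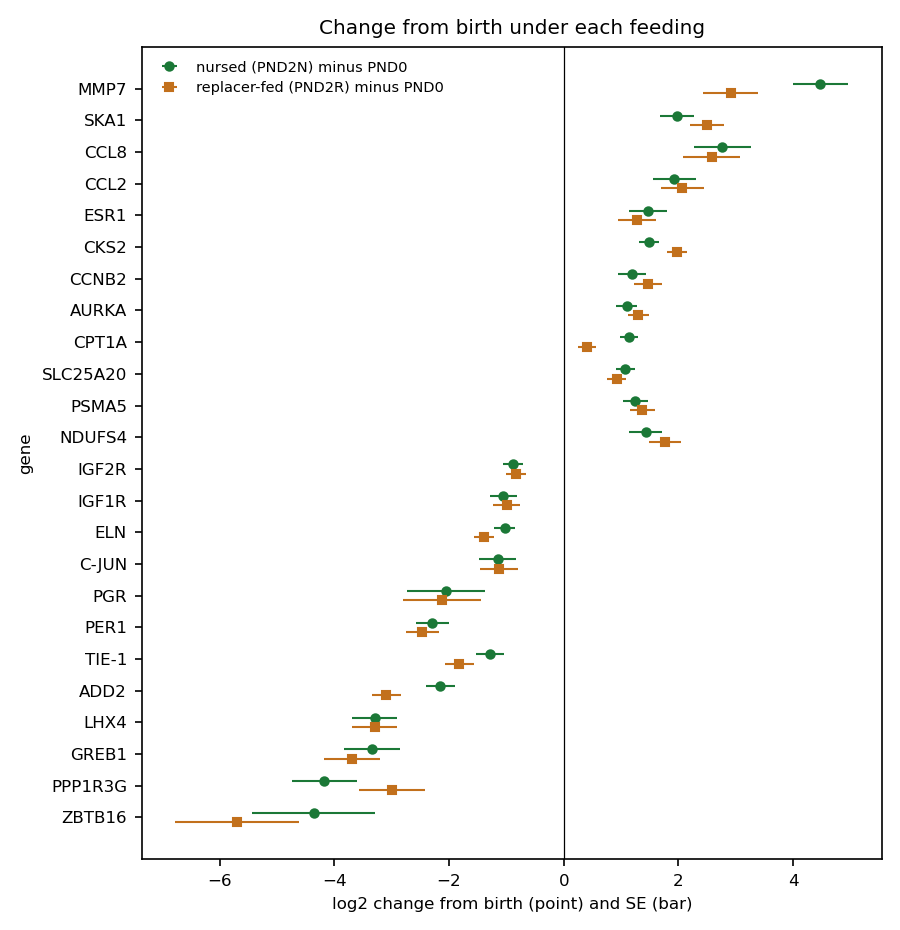
Log2 change from birth (horizontal axis, bars for ± 1 SE) of 24 genes in nursed gilts (green circles) and replacer-fed gilts (orange squares), both against the same PND0 libraries. Every gene lies on 1 side of 0 under both feedings; the circle and square of CPT1A, MMP7 and ADD2 stand farthest apart relative to their bars.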

How the data were processed

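RNA of 12 whole uteri had been purified on columns, made into libraries with a messenger RNA kit and sequenced, per the labels' protocols. Reads were demultiplexed with bcl2fastq, and the genome build was Sscrofa10.2, per the submitters' processing notes. How reads were aligned, counted (with or without strand) and normalized is not given in the sources used here. The deposited values are a linear normalized signal per gene, computed by the authors, with 1 as the lowest entry. Low values were spaced as whole reads within 0.02 of a step for 39.3% to 51.9% of entries, which was too few to recover read counts for a count test, and the depths given are rough.

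Genes above 1 in at least 4 libraries were tested on log2(value + 1) with limma 3.58.1 (R 4.3.3, statmod 1.5.0), with a mean for each of the 3 groups and a trended, robust variance. The contrast was the average of PND2N and PND2R minus PND0, two-sided, with Benjamini-Hochberg adjustment over 16862 genes. The procedure was tested on simulated data. Tables and plots used Python 3.11.15, pandas 2.3.3, numpy 2.4.6 and matplotlib 3.10.9.

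Of 13716 placeholder names, 6403 were given a symbol from the NCBI gene table of pig genome Sscrofa11.1, used for names only. Another 81 entries whose symbol now belongs to a different gene were left unnamed, and 11 symbols stored as calendar dates were put back. Coordinates are those of the deposited table.

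The members and the 38 lists were chosen with earlier results of these data known. Of 863 list entries, 700 were matched in the table and 665 distinct genes were tested. Named genes are the 14 largest rises and 14 largest falls with a symbol, no overlap between ages and a mean of 10 or more at whichever age was higher. The rule adds the 8 of each with a mean of at least 1000, up to 4 members of each list with the smallest p, and the 4 smallest adjusted p-values. Members of lists that did not pass are mostly given by counts. Other list members that passed are named without values, a few results are not reported here, and PGR, HOXA13 and the entries without a symbol fall outside the rule. The replicate numbers are in accession order and pair nothing. Alternatives were an added value of 0.1 or 5, no filter or a filter above 10, TMM and quantile scaling, 2 groups in the fit, plain empirical Bayes, library weights, a fold of at least 2, and each library left out. Leaving out PND2N 1, PND2R 2 and PND2R 3 together, and the list counts under each alternative, were added after the data were seen. A planned search for promoter motifs was not run and no sequences are given.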

Additional observations from a re-analysis of the deposited data

Results flagged for a closer look

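Dixon's test sets 1 library of 4 apart from the other 3 in about 1 group in 20 by chance. That rate does not hold where 3 libraries are at the lowest entry of 1, since any other value is then flagged. The flags of PPP1R3G, GREB1 and LHX4 given below are of this kind. The test flagged 26 of the 528 groups of 4 libraries examined for named genes. In newborns these were THEMIS2 in PND0 1 (29.1, the others 18.0 to 18.4), PMEL in PND0 1 (1, the others 7.24 to 7.34), METTL23 in PND0 4 (407.3, the others 618.4 to 662.1), ELMSAN1 in PND0 2 (951.4, the others 1329 to 1365), AURKB in PND0 1 (684.5, the others 895.5 to 917.5) and CXCL13 in PND0 1 (1, the others 3.93 to 4.90). In nursed gilts they were CCL8 in PND2N 4 (154.9, the others 92.6 to 96.2), PPY in PND2N 1 (100.3, the others 43.7 to 45.9), BBOX1 in PND2N 2 (7.45, the others 15.3 to 16.9), PPP1R3G in PND2N 3 (1.18, the others at 1), ACAA2 in PND2N 2 (3545, the others 3811 to 3859), IGF1R in PND2N 1 (1184, the others 1486 to 1516), IRS1 in PND2N 1 (959.6, the others 1675 to 1854), HERC5 in PND2N 4 (685, the others 343.1 to 365.5), EGR2 in PND2N 1 (1, the others 7.02 to 9.003), NUF2 in PND2N 3 (2741, the others 1429 to 1580), PLIN4 in PND2N 3 (444.6, the others 889.3 to 960.9) and TPX2 in PND2N 3 (4927, the others 2902 to 3169). In replacer-fed gilts they were GREB1 in PND2R 1 (2.21, the others at 1), LHX4 in PND2R 4 (1.91, the others at 1), KLF10 in PND2R 3 (2277, the others 3278 to 3531), C-JUN in PND2R 2 (7225, the others 6029 to 6138), EGLN3 in PND2R 2 (354, the others 552.3 to 602), CD59 in PND2R 2 (8125, the others 5871 to 6050.0), LRRN4 in PND2R 4 (1, the others 4.11 to 4.86) and FOS in PND2R 2 (459, the others 218.1 to 238.2).

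Between the feeding groups, 2 genes passed the test of the difference itself, PND2N minus PND2R, in limma's fit. The difference was -4.03 on the log2 scale for LOC100518566 (adjusted p = 0.00999) and -5.13 for LOC100514492 (adjusted p = 2.16e-05), with all 4 nursed gilts below all 4 replacer-fed gilts in both.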

How the results depend on the processing

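The number of genes that changed was 3046 with all libraries and ran from 1014 to 3837 when 1 library was left out, rises from 595 to 1946 and falls from 419 to 1891, each lowest without PND0 4 and highest without PND2N 3. Fewer libraries were compared in each of these. Without the 3 libraries of highest DES, 1419 genes changed, 630 up and 789 down, and with a fold of at least 2 required 1534 changed, 533 of them up. Library quality weights gave 944 falls. These moved the feeding count from 2 to 6, as did leaving out the 3 libraries, and single left-out libraries to between 1 and 3. The cause was not tested. Rises numbered 1429 to 1875 and falls 1043 to 1580 under the added values, the filters, TMM and quantile scaling, the fit of 2 groups and plain empirical Bayes. The median change over all genes moved by less than 0.1 under each scaling. Of 171 named genes that passed, 86 did so under each of the 22 alternatives that tested them (KLF9 was tested under 21), 89 with any 1 library left out and 118 without the 3, and 0 changed direction. C14H10orf62, which passed under all 22, is not in these counts. Losses were most numerous without PND0 4 (77) and PND0 3 (55). They numbered 52 without the 3 libraries of highest DES, 34 with no filter, 31 with library quality weights and 13 with plain empirical Bayes. The medians of the citrate cycle, chaperone, stroma, lymphoid, erythroid and fat cell lists changed sign under at least 1 alternative. No paired analysis was possible because the labels give the groups no shared numbers. With 4 newborns and no depth in the files, small changes of genes at low values were not detectable.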

Other observations

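The share of genes that rose differed with the length of the gene's interval in the table. Among 5 equal sets of genes ordered by interval length, rises made up 11.1%, 11.4%, 10.6%, 8.54% and 6.26% from the shortest to the longest, against 9.57% of all. Falls made up 7.92%, 8.01%, 8.72%, 8.93% and 8.89% in the same order, against 8.49% of all. The median change was 0.11, 0.07, -0.03, -0.13 and -0.22. The set of shortest intervals ended at 5.03 kb and that of the longest began at 58.6 kb.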
